A study of Mus musculus with 42 samples.

Results

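The spleen response 24 h after an injection of CpG oligodeoxynucleotides (CpG ODN) was described by setting the arrays of that time against those of untreated mice. These are 10 of the 42 arrays of a time course in mouse spleen, 4 at 24 h and 6 untreated, taken by their titles. The mice were female BALB/c, a common inbred strain, and their age is not given in the sources used here. Treated mice had received 400 µg of an equimolar mix of the CpG ODN 1555 and 1466 into the peritoneal cavity. Untreated mice had no injection, and a control ODN group exists at 3 h alone, so the effects of CpG motifs, of any DNA and of the injection itself cannot be told apart at 24 h. Whole spleens were extracted and each array is described as an independent biological replicate. Each array read spleen cDNA (Cy5) against the cDNA of a common mouse reference RNA (Cy3), and a value is the log2 ratio of spleen over reference. The base and the direction were inferred from the values. Features carrying 1 gene symbol were averaged by symbol, which gave 15277 genes, and 15190 of them had at least 3 values in both groups and were tested.

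DNA with unmethylated CpG motifs is read by TLR9, an endosomal receptor that signals through the adaptor MyD88. In plasmacytoid dendritic cells this leads to type I interferon through IRF7, and in B cells and other dendritic cells to NF-kB targets such as IL-6 and IL-12. Interferons then act on nearly all cells through STAT factors and induce antiviral proteins, GTPases that attack pathogen vacuoles, and antigen presentation. The spleen joins lymphoid white pulp with red pulp, in which macrophages clear old red cells and return their iron, and in rodents it also makes red cells.

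Spleen markers were high. The B cell antigen receptor subunit Cd79a read 6.20, 5.64, 5.48 and 4.83 on the 24 h arrays, and the class II chain H2-Aa read 7.07, 7.32, 7.03 and 6.70, both far above the reference. Correlations between arrays over all features ran from 0.774 to 0.889 within the 24 h group, from 0.865 to 0.957 within the untreated group and from 0.778 to 0.902 between the groups. Features without a value numbered 205 to 859 on the 24 h arrays and 186 to 1740 on the untreated arrays. Precision is set by the number of arrays. The labels name no run. Arrays were grouped here into runs by the database numbers in their titles, with a gap above 12 starting a new run. This limit was not varied. So defined, no run holds both groups. Untreated replicates 1 and 3 to 6 lie in run 1 and replicate 2 in run 2. The 24 h replicates 2 to 4 lie in run 3 with the 9 h arrays, and 24 h replicate 1 lies alone. Run and treatment are linked only through the CpG 3 h arrays, which occur in runs 2 and 3.

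At 24 h, 1656 of 15190 genes (10.9%) were called at an adjusted p below 0.05 in limma, 1220 higher (8.03%) and 436 lower (2.87%) than in untreated spleen. The median difference over all genes was 0.015 on the log2 scale. List counts given below for 24 h against untreated are to be read beside these shares of 8.03% and 2.87%. Among called genes 277 were higher by more than 1 and 56 lower by more than 1, and 46 differed by more than 2. For 1144 of the 14134 genes with 10 values (8.09%), every array of one group lay beyond every array of the other, 820 of them higher (5.8%) and 324 lower (2.29%). The count of called genes was 832 without 24 h replicate 3 and 2578 without 24 h replicate 4. With run as a term in the fit, on 12588 genes measured on every array, 133 were called, 118 higher and 15 lower. Of 77 genes named and called here that could be fitted so, 29 kept their call, 47 lost it and 1, Apol7c, changed sign. Those that kept it were Afp, Aqp1, Blvra, Bst2, Cfb, Fcer2a, Fech, Gbp2, Gbp2b, Ifi203, Ifi204, Ifih1, Ifit3, Iigp1, Itgax, Ly6c1, Mki67, Mlkl, Ms4a6d, Msr1, Mx2, Psmb2, Psme1, Slfn3, Slfn4, Stat2, Trem3, Usp18 and Wfdc18. That fit ties 24 h to untreated spleen through 1 untreated array and the 3 h arrays of its run. Quantile normalization gave 1226 higher and 818 lower genes, so the share of higher calls was 73.7% as deposited and 60.0% after it. In these bulk samples, fewer cells of a type and less RNA per cell cannot be told apart.

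Of the 20 highest genes of the naming rule 9 belonged to the antiviral, GTPase or p200, schlafen and apolipoprotein L lists, and of the 20 lowest 7 belonged to the erythroid or haem lists. Of 15190 genes tested, the first 3 lists hold 25, 15 and 14, and the erythroid and haem lists 32 and 19. The lists were chosen with earlier results of these data known, so these overlaps are partly built in. Ms4a6d, a membrane protein of monocytes and macrophages, read 5.93, 5.09, 5.87 and 5.50 at 24 h and 1.25 to 2.01 (median 1.66) in untreated spleen, a difference of 3.95 ± 0.22, adjusted p = 5e-16 (± is the standard error of the fit). Slfn4, a schlafen gene of myeloid cells, read 3.08, 3.45, 3.48 and 2.15 against -0.76 to 0.58 (median -0.07), a difference of 3.12 ± 0.31, adjusted p = 1.43e-09. The chemokine Ccl12, which attracts monocytes, read 2.97, 1.99, 2.45 and 2.04 against -1.30 to -0.24 (median -0.67), higher by 3.05 ± 0.31, adjusted p = 3.28e-09. The naming rule took only genes whose groups of arrays do not overlap, so the separation in these genes is part of the choice. Cd5l, a scavenger protein that macrophages secrete, read 5.21, 5.78, 6.07 and 5.24 against 1.14 to 3.37 (median 2.79), higher by 2.98 ± 0.44, adjusted p = 7.61e-06. Gzmb, the granzyme by which killer cells cleave target proteins, read 4.43, 5.50, 4.84 and 4.47 against 1.70 to 3.01 (median 2.09), higher by 2.54 ± 0.30, adjusted p = 7.55e-08. Afp, best known as the fetal plasma protein of the liver, read 1.19, 1.39, 0.99 and 0.87 against -2.33 to -0.80 (median -1.59), higher by 2.72 ± 0.29, adjusted p = 9.46e-09. In these genes too, the separation of the groups was required by the rule. The other genes among the 20 highest included the stefin Csta2 (2.83 ± 0.38), the myeloid receptor Trem3 (2.79 ± 0.25), the whey acidic protein domain gene Wfdc18 (2.95 ± 0.32) and the endothelial lipase Lipg (2.79 ± 0.35).

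**Figure D1:**
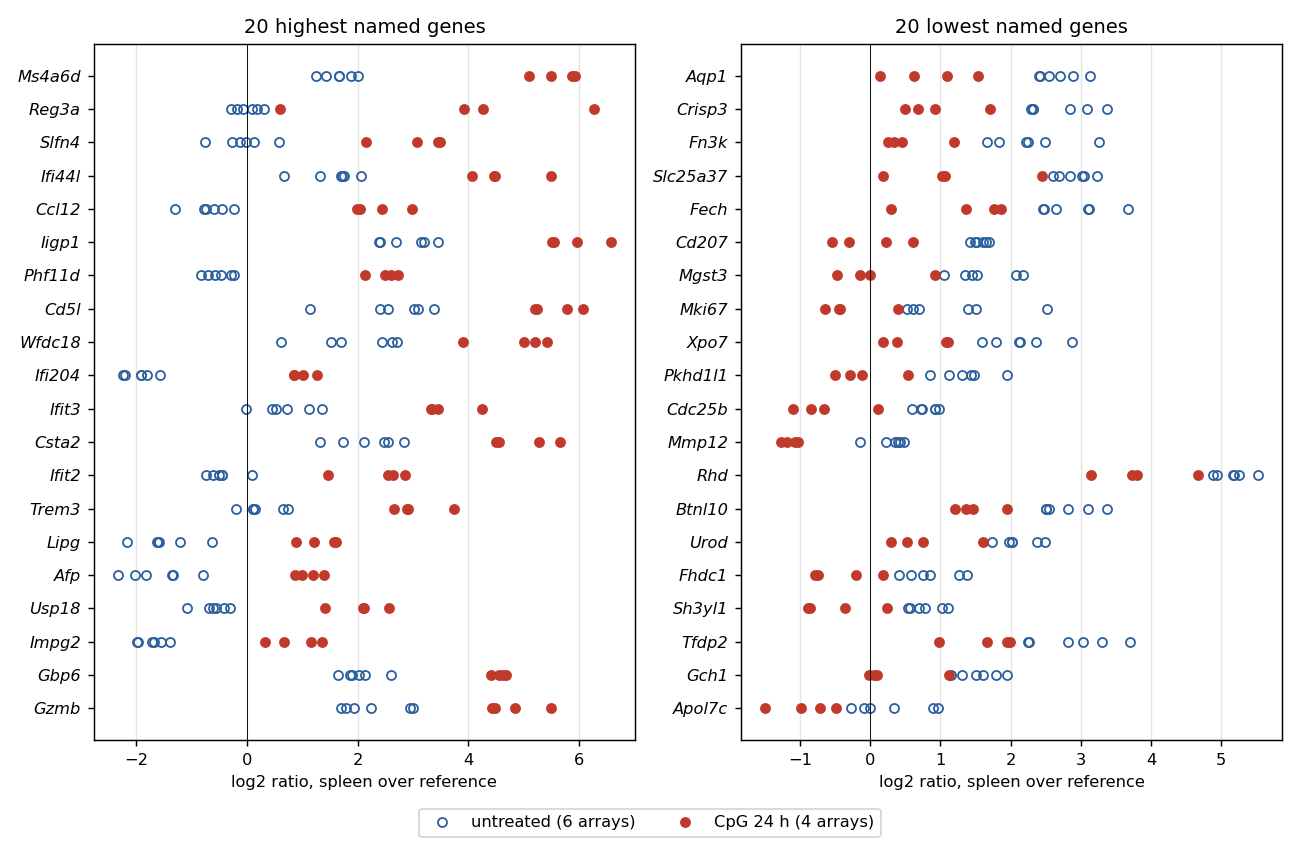
Log2 ratio of spleen over reference (horizontal axis) for the 20 highest and 20 lowest genes of the naming rule, 1 point per array, with CpG 24 h filled and untreated open. The rule required called genes whose groups do not overlap, so the separation is part of the choice, and a small spread within groups is favoured by it. Reg3a spans 0.60 to 6.27 at 24 h and Mmp12 -1.27 to -1.03.

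The lower end was led by Aqp1, the water channel of the red cell membrane, which read 0.62, 1.54, 0.14 and 1.09 at 24 h and 2.40 to 3.13 (median 2.62) in untreated spleen, a difference of -1.83 ± 0.29, adjusted p = 2.6e-05. Cd207, the lectin langerin of a dendritic cell subset, read -0.54, -0.30, 0.23 and 0.61 against 1.42 to 1.70 (median 1.56), lower by 1.56 with adjusted p = 9.515e-05. Mmp12, the macrophage elastase, read -1.03, -1.27, -1.07 and -1.18 against -0.15 to 0.48 (median 0.37), a difference of -1.43 ± 0.20, adjusted p = 1.61e-06. The 24 h arrays lay close together in Mmp12, which the naming rule favours, and below all untreated arrays, which it required. Crisp3, a cysteine-rich secretory protein, fell to 0.92, 1.71, 0.68 and 0.49 from 2.29 to 3.37 (median 2.58), a difference of -1.76 ± 0.27, adjusted p = 2.1e-05. Gch1, the first enzyme of tetrahydrobiopterin synthesis, differed by -1.24 ± 0.26, adjusted p = 0.00102.

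Antiviral interferon-stimulated genes were higher almost throughout: 23 of 25 measured members were called higher and 0 lower, with a median difference of 1.73, where 8.03% of all genes were called higher. Ifit3, which binds viral RNA as part of a complex, read 4.24, 3.35, 3.32 and 3.44 at 24 h against -0.01 to 1.35 (median 0.62) untreated, a difference of 2.90 ± 0.28, adjusted p = 4.77e-10. Usp18, the protease that removes ISG15 and damps interferon receptor signalling, read 2.11, 2.58, 2.10 and 1.40 against -1.08 to -0.31 (median -0.58), higher by 2.66 ± 0.24, adjusted p = 1.95e-10. Bst2, which tethers budding virions, read 1.89, 1.98, 1.96 and 1.67 against -0.47 to -0.09 (median -0.29), higher by 2.17 ± 0.16, adjusted p = 1.3e-12. All 24 h arrays were above all untreated arrays for 22 of the 25 members, where this held for 5.8% of genes. Rsad2 (0.43 ± 0.41, adjusted p = 0.548) and Isg20 (0.05 ± 0.23, adjusted p = 0.924), named after their values were seen, were the members that did not pass. With run in the fit 15 of 23 members were called, at a median of 1.91.

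Sensors and signalling proteins of the pathway had 9 of 26 members higher, where 8.03% of all genes were called higher, 0 lower and a median of 0.23. The RNA sensor Ifih1 (MDA5) read 3.54, 3.68, 3.75 and 2.92 against 1.43 to 1.93 (median 1.56), higher by 1.83 ± 0.18, adjusted p = 1.33e-09. Tlr7, the endosomal receptor for single-stranded RNA, was higher by 1.46 ± 0.24, adjusted p = 2.895e-05, while the receptor for CpG DNA itself, Tlr9, differed by 0.17 ± 0.20, adjusted p = 0.651. The Tlr9 arrays overlapped, at 0.78, 0.93, -0.23 and 0.15 against -0.03 to 0.54 (median 0.19), and its features did not all go 1 way. The adaptor Myd88 rose by 0.86 ± 0.19, adjusted p = 0.00197, the transcription factor Irf7 by 1.03 ± 0.23, adjusted p = 0.0018 and Stat2, which carries the type I interferon signal, by 1.38 ± 0.15, adjusted p = 8.87e-09. Ifng, the gene of interferon-gamma, read 2.57, 1.94, 2.06 and 1.45 against 1.69 to 2.20 (median 1.88) and did not pass (0.08 ± 0.19, adjusted p = 0.836).

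Interferon-inducible GTPases, which gather on pathogen vacuoles and disrupt them, were higher in 14 of 15 measured members, with a median of 1.58. Promoters of 2 of them, of Ifit3 and of the apolipoprotein L gene Apol7c, which fell, are shown because all hold a match to the response element of interferon. The 160 bases before the start are given 5′ to 3′ on the strand of the gene, from RefSeq's promoter table (GRCm38.p6), with matches to the interferon-stimulated response element, GAAA and GAAA with a pair of any bases between them, read on either strand, in capitals. They lie at chr3:142620503-142620662 (plus strand) for Gbp2, chr11:58199396-58199555 (plus strand) for Igtp, chr19:34583369-34583528 (plus strand) for Ifit3 and chr15:77533316-77533475 (minus strand) for Apol7c, where 2 matches overlap.
Gbp2: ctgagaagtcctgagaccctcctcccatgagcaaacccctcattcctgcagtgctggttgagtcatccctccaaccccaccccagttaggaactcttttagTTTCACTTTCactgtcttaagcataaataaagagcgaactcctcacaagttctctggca
Igtp: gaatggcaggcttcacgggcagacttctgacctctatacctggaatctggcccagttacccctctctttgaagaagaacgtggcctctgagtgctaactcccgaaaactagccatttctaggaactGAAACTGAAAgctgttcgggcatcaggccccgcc
Ifit3: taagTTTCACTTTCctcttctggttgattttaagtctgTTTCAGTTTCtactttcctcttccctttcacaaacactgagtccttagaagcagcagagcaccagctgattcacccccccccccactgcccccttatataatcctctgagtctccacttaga
Apol7c: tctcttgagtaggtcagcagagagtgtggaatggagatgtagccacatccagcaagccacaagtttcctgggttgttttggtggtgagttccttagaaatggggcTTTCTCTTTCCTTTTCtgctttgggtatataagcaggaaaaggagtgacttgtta
In windows from 250 bases before to 50 after the start, 9 of 10 GTPase genes with a promoter in the table held the element (90.0%), as did 9 of 18 antiviral genes (50%) and 9 of 13 p200, schlafen and apolipoprotein L genes (69.2%), against 3.84% of 12045 tested genes. It was found in 84 of 988 genes called higher (8.5%) and 10 of 335 called lower (2.99%). A match is a description of the letters and not of binding.

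Iigp1, a p47 GTPase, read 5.52, 5.56, 6.57 and 5.96 at 24 h against 2.39 to 3.45 (median 2.92) untreated, a difference of 3.02 ± 0.25, adjusted p = 1.47e-11. Gbp2, a guanylate-binding protein, read 2.96, 3.34, 3.94 and 3.91 against 1.08 to 1.47 (median 1.30), higher by 2.25 ± 0.27, adjusted p = 5.79e-08. Igtp (Irgm3), which regulates the other p47 GTPases, read 3.44, 3.71, 4.05 and 3.37 against 1.75 to 2.25 (median 2.17), higher by 1.58 ± 0.21, adjusted p = 5.33e-07. In all 14 called members the groups of arrays were apart. Gbp6 (2.54 ± 0.21) and Gbp2b (2.45 ± 0.27) had the next largest differences after Iigp1, and Irgm1, which also acts in autophagy, rose by 1.59 ± 0.22. Tgtp1 was the member that did not pass (0.25 ± 0.24, adjusted p = 0.562). Several of these genes have close copies, and signal shared between copies was not tested. With run in the fit 3 of 13 members were called, at a median of 1.40.

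Of 14 p200, schlafen and apolipoprotein L genes, 10 were higher, 1 was lower and the median was 0.88. Ifi204, a nuclear p200 protein that binds DNA, read 0.85, 0.85, 1.27 and 1.01 against -2.25 to -1.58 (median -1.91), higher by 2.94 ± 0.21, adjusted p = 3.38e-13. Slfn3 rose by 2.13 ± 0.25, adjusted p = 6.25e-08 and Ifi203 by 1.17 ± 0.13, adjusted p = 1.6e-08. Apol7c, an apolipoprotein L gene with the response element shown above, went the other way: it read -0.99, -0.48, -0.72 and -1.49 at 24 h and -0.28 to 0.96 (median 0.18) in untreated spleen, a difference of -1.23 ± 0.36, adjusted p = 0.0208. Its adjusted p was 0.0503 without untreated replicate 4 and 0.0603 without 24 h replicate 4, and with run in the fit its difference was 0.17. At 9 h it had averaged 2.73 ± 0.69 (SD, n = 4), and 24 h was below 9 h by 3.65 (adjusted p = 9.49e-08).

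**Figure D2:**
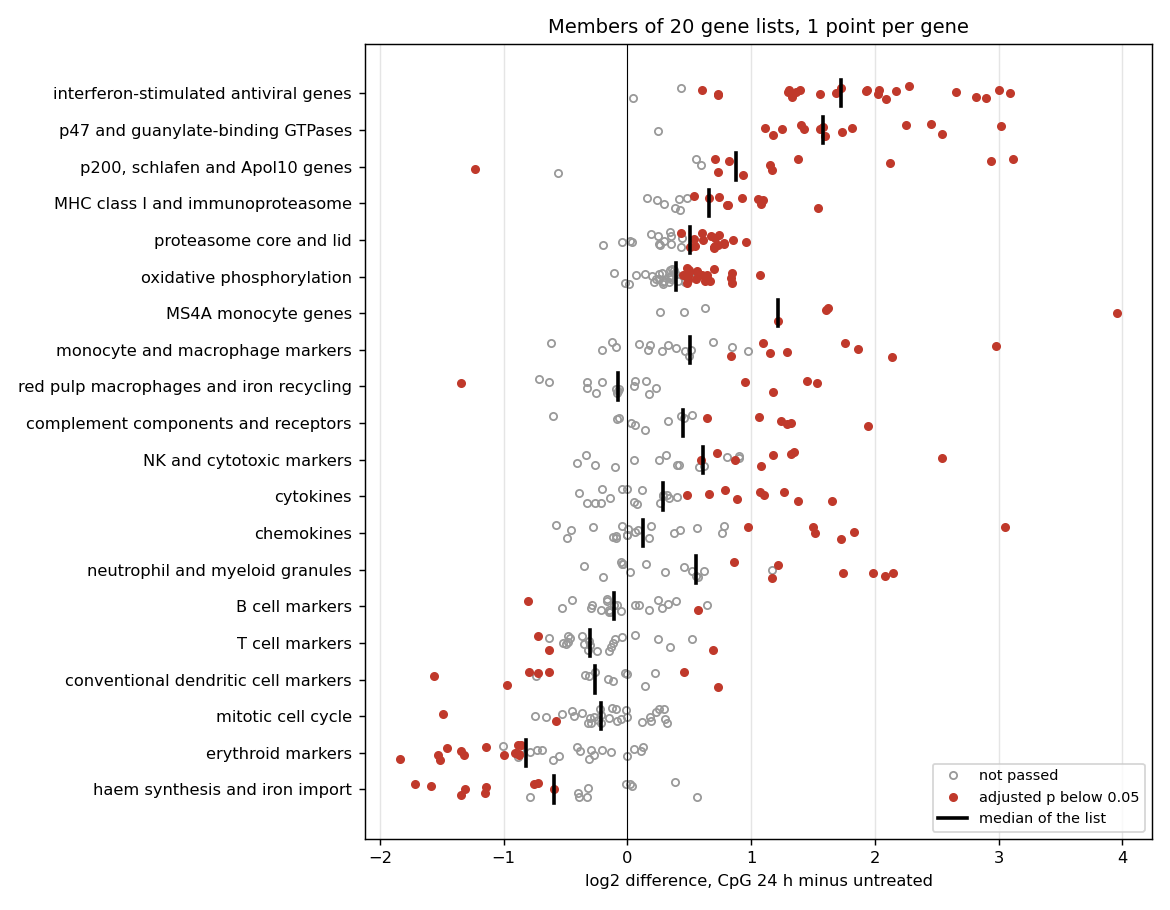
Log2 difference of CpG 24 h minus untreated (horizontal axis) for the measured members of 20 gene lists, 1 point per gene, filled where called, with the list median as a bar. Antiviral genes and GTPases lie to the right of 0 with medians of 1.73 and 1.58, while erythroid and haem genes lie mostly to the left with medians of -0.82 and -0.59.

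Antigen processing for MHC class I was higher in 10 of 17 members (median 0.66) and class II in 0 of 15 (median -0.15). Psmb9, an interferon-induced catalytic subunit of the immunoproteasome, read 3.59, 3.84, 4.38 and 3.53 at 24 h against 2.09 to 2.51 (median 2.26), a difference of 1.54 ± 0.23, adjusted p = 8.07e-06. Tap1, a subunit of the peptide pump of the endoplasmic reticulum, read 2.81, 2.23, 1.37 and 1.59 against 0.83 to 1.04 (median 0.90), higher by 1.08 ± 0.24, adjusted p = 0.00182. Psme1, a subunit of the proteasome activator PA28, was higher by 1.06 ± 0.15, adjusted p = 3.45e-06. For class II, H2-Aa differed by 0.24 ± 0.23, adjusted p = 0.544 and the invariant chain Cd74 by -0.27 ± 0.16, adjusted p = 0.271, neither past the threshold. After quantile normalization Cd74 was lower by 0.55 with an adjusted p of 0.0165.

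Constitutive proteasome subunits were also higher, in 17 of 31 members with 0 lower and a median of 0.50. Psma5 of the core ring read 0.57, 0.41, 0.46 and 0.30 against -0.83 to -0.11 (median -0.58), higher by 0.96 ± 0.15, adjusted p = 2.18e-05. Psmb2, a core subunit as well, read 0.62, 0.78, 0.46 and 0.28 against -0.49 to -0.16 (median -0.30), higher by 0.85 ± 0.13, adjusted p = 7.11e-06. Proteasome differences were all under 1 among called members, so that 0 members passed when a difference above 1 was also required. Subunits of oxidative phosphorylation were higher in 20 of 46 members, 0 lower, with a median of 0.40. Cox5a of cytochrome oxidase read 0.61, 0.91, 1.02 and 0.33 against -0.56 to -0.21 (median -0.33), higher by 1.07 ± 0.15, adjusted p = 1.42e-06. Cycs, the electron carrier cytochrome c, rose by 0.85 ± 0.18, adjusted p = 0.00118 and the succinate dehydrogenase subunit Sdhb by 0.66 ± 0.16, adjusted p = 0.00526. The count was 13 without 24 h replicate 2 and 11 without 24 h replicate 3, and with run in the fit it was 0 of 44 for oxidative phosphorylation and 1 of 31 for the proteasome, at medians of 0.38 and 0.51.

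Endoplasmic reticulum chaperones were higher in 6 of 23 members, 0 lower, with a median of 0.38, and 10 without 24 h replicate 4. The disulfide isomerase Pdia6 read 1.68, 1.89, 1.84 and 0.93 against -0.29 to 0.36 (median 0.21), higher by 1.48 ± 0.21, adjusted p = 1.925e-06. Hsp90b1, the chaperone that folds Toll-like receptors and integrins, was higher by 0.88 ± 0.18, adjusted p = 0.0007275 and Manf, a secreted stress protein, by 0.88 ± 0.20, adjusted p = 0.00283. In glycolysis 6 of 21 members were higher and 1 lower, around a median of 0.08, with 3 higher without 24 h replicate 2 or 3 or untreated replicate 2 or 6. Pgk1 rose by 1.05 ± 0.16, adjusted p = 7.55e-06 and Ldha, which makes lactate, by 0.70 ± 0.15, adjusted p = 0.00134.

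Monocyte and macrophage markers were higher in 8 of 24 members, 0 lower, with a median of 0.50, and MS4A genes in 4 of 7 with a median of 1.22. Ly6c1, a surface protein of the Ly6C antigen, read 3.98, 3.82, 4.22 and 3.79 at 24 h against 1.19 to 2.62 (median 1.72), a difference of 2.14 ± 0.21, adjusted p = 6.99e-10. The scavenger receptor Msr1 read 1.70, 0.72, 1.39 and 1.18 against -0.90 to -0.15 (median -0.55), higher by 1.76 ± 0.15, adjusted p = 3.45e-11. Fcgr4, an activating Fc receptor, read 3.84, 2.39, 3.00 and 2.95 against 0.68 to 1.85 (median 1.10), higher by 1.87 ± 0.29, adjusted p = 1.11e-05. In each of these 3 genes every 24 h array was above every untreated array. The integrin Itgax (CD11c) was higher by 1.29 ± 0.21, adjusted p = 2.765e-05 and the co-receptor Cd14 did not pass (0.69 ± 0.25, adjusted p = 0.0711, but 0.0179 without 24 h replicate 4, 0.0485 after quantile normalization, 0.0386 after scaling and 0.0281 with array weights).

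Red pulp genes were mixed, with 4 of 20 higher, 1 lower and a median of -0.07. The lower member was the iron uptake receptor Tfrc, which also stands in the erythroid and haem lists and is described with them below. Of all genes 8.03% were called higher and 2.87% lower. Spic, the transcription factor of red pulp macrophages, read 5.91, 5.56, 6.13 and 5.40 against 4.03 to 5.14 (median 4.48), higher by 1.18 ± 0.22, adjusted p = 0.000277. Blvra, which turns biliverdin from haem into bilirubin, read 2.12, 2.16, 2.07 and 1.74 against -0.15 to 0.86 (median 0.55), higher by 1.53 ± 0.17, adjusted p = 2.52e-08. Slc40a1, the iron exporter ferroportin, read 5.11, 5.42, 5.58 and 5.11 against 4.83 to 5.57 (median 5.26) and did not pass (0.06 ± 0.21, adjusted p = 0.886). It was well above its level at 9 h, by 1.80 ± 0.23, adjusted p = 2.21e-06. The haem oxygenase Hmox1 differed by 0.05 ± 0.18, adjusted p = 0.895. Treml4, a receptor of splenic macrophages and dendritic cells, rose by 1.45 ± 0.32, adjusted p = 0.00174 over untreated and by 1.99 ± 0.35, adjusted p = 0.000245 over 9 h.

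Complement genes were higher in 6 of 16 members, 0 lower (median 0.45). Factor B (Cfb) of the alternative pathway read 6.97, 6.42, 6.61 and 6.18 against 4.27 to 4.89 (median 4.65), higher by 1.95 ± 0.22, adjusted p = 2.52e-08, and the C1q chain C1qc was higher by 1.32 ± 0.25, adjusted p = 0.000316. Lysosome and phagocytosis genes were higher in 6 of 22 members, 0 lower, led by the transglutaminase Tgm2 (1.42 ± 0.23, adjusted p = 2.69e-05) and the protease activator cathepsin C, Ctsc (1.10 ± 0.23, adjusted p = 0.00121). Macrophage effectors were higher in 4 of 23 and lower in 1, the elastase Mmp12 named above, where 8.03% and 2.87% of all genes were called.

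Cytokine genes were higher in 9 of 26 members, 0 lower, with a median of 0.29. Il18, which drives interferon-gamma production, read 4.49, 3.95, 5.20 and 4.55 at 24 h against 2.68 to 3.27 (median 2.86), a difference of 1.65 ± 0.21, adjusted p = 4.57e-07. Il12b, the shared chain of IL-12 and IL-23, had 3 values at 24 h, 2.01, 1.37 and 1.12, against 0.13 to 0.76 (median 0.42), a difference of 1.11 ± 0.20, adjusted p = 0.000258. Il10, the anti-inflammatory cytokine, read 0.57, 0.72, 0.40 and -0.19 against -1.38 to -0.01 (median -1.05), higher by 1.27 ± 0.20, adjusted p = 2.53e-05, with replicate 4 inside the untreated range. Tnf read 1.24, 0.58, 0.97 and 0.91 against 0.43 to 0.76 (median 0.59) and did not pass (0.34 ± 0.22, adjusted p = 0.339). Among chemokines 6 of 26 were higher, 0 lower (median 0.13), and 10 without 24 h replicate 4. Cxcl9, a ligand of the chemokine receptor CXCR3, rose by 1.83 ± 0.36, adjusted p = 0.000443 and Cxcl10, its relative, by 1.72 ± 0.30, adjusted p = 7.76e-05. Ccl2, the main monocyte attractant and a near relative of Ccl12, differed by 0.00 ± 0.25, adjusted p = 0.997. Of 23 NF-kB targets and feedback genes 3 were higher (5 without 24 h replicate 4) and 1 lower, among them Socs3, an inhibitor of cytokine receptor signalling (1.17 ± 0.27, adjusted p = 0.002685), and Socs1 (0.91 ± 0.18, adjusted p = 0.000675).

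Cell death genes were higher in 5 of 20 members, 0 lower (median 0.19). Mlkl, the pore former of necroptosis, read 0.45, 0.91, 0.42 and -0.08 at 24 h against -1.53 to -1.27 (median -1.48), a difference of 1.85 ± 0.20, adjusted p = 1.255e-08. Casp4 (caspase-11), which senses cytosolic lipopolysaccharide, read 1.47, 1.10, 1.44 and 0.79 against -0.70 to 0.16 (median -0.22), higher by 1.43 ± 0.18, adjusted p = 1.48e-07. In both genes every 24 h array lay above every untreated array.

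Neutrophil and granule genes were higher in 7 of 21 members, 0 lower (median 0.56), 4 without 24 h replicate 2 or 3 and 11 without 24 h replicate 4. They included the collagenase Mmp8 (2.08 ± 0.38, adjusted p = 0.000186) and the siderophore-binding lipocalin Lcn2 (1.74 ± 0.32, adjusted p = 0.000258), while the azurophil peroxidase Mpo did not pass (0.57 ± 0.26, adjusted p = 0.154, and 0.0198 without 24 h replicate 4). Killer cell genes were higher in 8 of 22 members, 0 lower (median 0.61). Gzma read 8.07, 8.19, 8.01 and 7.03 against 5.76 to 7.25 (median 6.59), higher by 1.32 ± 0.29, adjusted p = 0.00161, with replicate 4 inside the untreated range, and its adjusted p was 0.145 with arrays scaled to 1 median absolute deviation. The activating receptor Klrk1 (NKG2D) rose by 1.08 ± 0.17, adjusted p = 1.69e-05, and the NK receptor Ncr1 missed the threshold with all but 1 of its values at 24 h above the untreated ones (0.90 ± 0.31, adjusted p = 0.0525, but 0.0312 without untreated replicate 1, 0.0302 without 24 h replicate 4, 0.0291 with array weights and 0.021 with only the groups compared).

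Of the 42 lists, erythroid markers had the most members called lower. Of 32 erythroid markers 13 were lower, where 2.87% of all genes were called lower, and 0 were higher, with a median of -0.82. Of 19 haem synthesis and iron import genes 9 were lower and 0 higher, with a median of -0.59. The mean of the erythroid list was 2.01, 2.47, 1.88 and 2.21 on the 24 h arrays and 2.58 to 3.30 on the untreated arrays. Slc25a37 (mitoferrin), which brings iron into the mitochondria of red cell precursors, read 1.07, 2.44, 0.19 and 1.03 at 24 h against 2.60 to 3.23 (median 2.93), a difference of -1.72 ± 0.28, adjusted p = 4.165e-05. Fech, which inserts the iron to finish haem, read 1.36, 1.76, 0.30 and 1.87 against 2.47 to 3.67 (median 2.87), a difference of -1.59 ± 0.31, adjusted p = 0.000499. Urod, an earlier enzyme of the same path, read 0.53, 1.60, 0.29 and 0.75 against 1.74 to 2.50 (median 2.03), a difference of -1.31 ± 0.27, adjusted p = 0.000739. For each of these the 24 h arrays lay below the untreated arrays, as the naming rule required of them, and replicate 3 was the lowest. Tfrc, the receptor through which precursors take up iron, read 0.86, 2.07, 0.52 and 0.35 against 1.84 to 2.62 (median 2.31), a difference of -1.35 ± 0.34, adjusted p = 0.00721, with replicate 2 inside the untreated range. Mgst3, a membrane glutathione transferase listed with the erythroid genes, differed by -1.53 ± 0.32, adjusted p = 0.00121 and the exportin Xpo7 by -1.46 ± 0.32, adjusted p = 0.00175.

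Globin genes and the first enzyme of red cell haem synthesis were not called. Hbb-b1 read 5.99, 6.68, 7.12 and 6.99 at 24 h against 6.19 to 7.82 (median 6.48) (-0.13 ± 0.39, adjusted p = 0.869). Hba-a1 read 4.36, 3.47, 4.46 and 4.21 against 2.98 to 4.73 (median 4.29) (0.05 ± 0.30, adjusted p = 0.933), and Alas2 read 5.14, 4.95, 4.26 and 4.02 against 3.42 to 5.29 (median 4.78) (0.02 ± 0.37, adjusted p = 0.981). The groups overlapped in all 3 genes. Klf1, a master regulator of red cell genes, read 3.89, 5.00, 3.68 and 4.11 against 4.33 to 6.31 (median 5.22) and did not pass (-1.01 ± 0.39, adjusted p = 0.0861, and 0.0474 without 24 h replicate 2, 0.0205 after quantile normalization and 0.0267 after scaling), nor did Gata1 (-0.27 ± 0.20, adjusted p = 0.4265). The count of lower erythroid genes was 7 without 24 h replicate 3, 21 after quantile normalization and 1 of 30 with run in the fit, at medians of -0.63, -0.97 and -1.42.

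**Figure D3:**
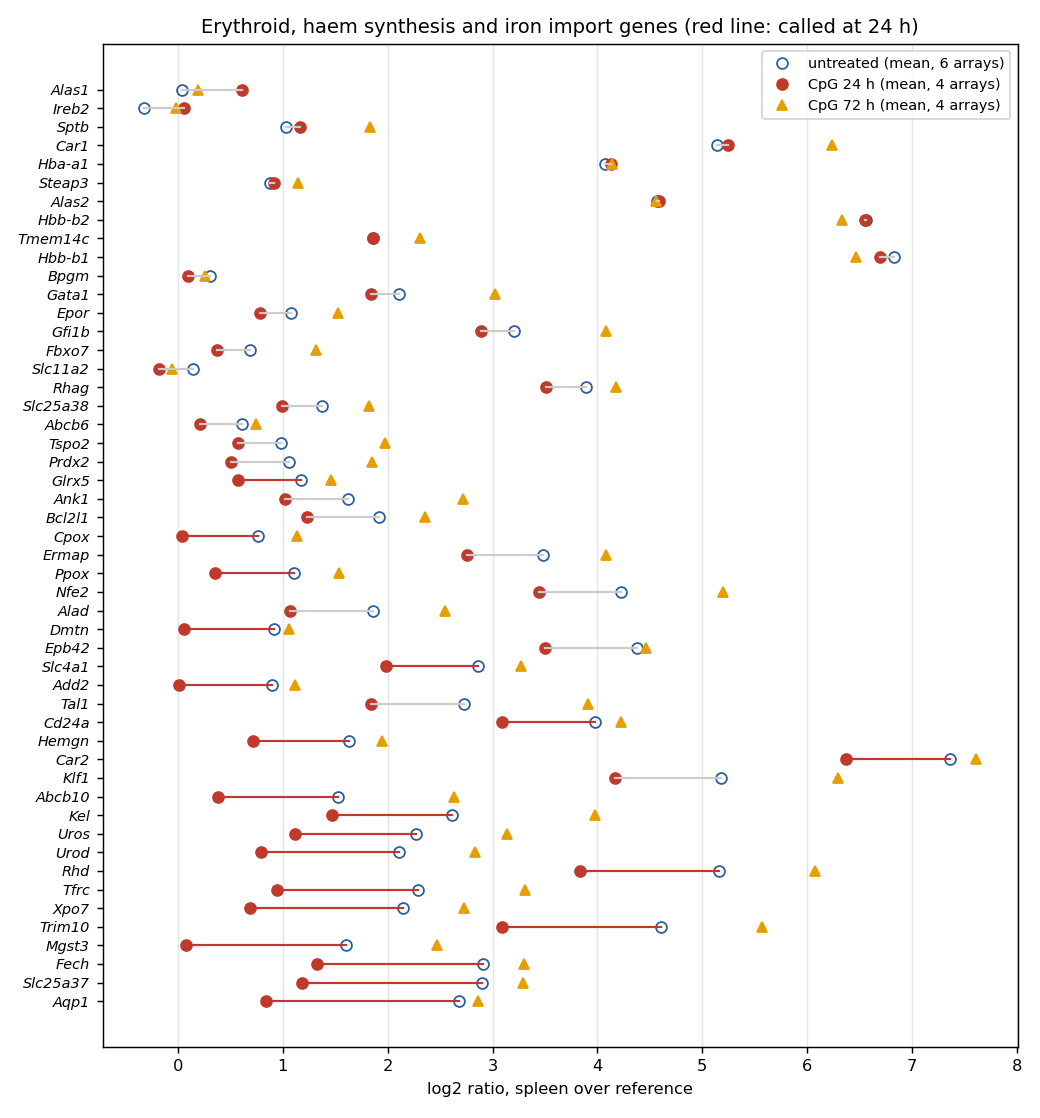
Group means of the log2 ratio (horizontal axis) for erythroid, haem synthesis and iron import genes in untreated, CpG 24 h and CpG 72 h spleen, ordered by the difference at 24 h, with a red line where 24 h was called against untreated. Globins and Alas2 have their 24 h and untreated points side by side, and all 21 genes with a red line have their 72 h point above the untreated one.

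Among blood group genes, Rhd read 3.14, 4.66, 3.80 and 3.73 against 4.89 to 5.52 (median 5.17) (-1.32 ± 0.40, adjusted p = 0.0245) and Kel read 1.33, 1.41, 1.33 and 1.80 against 1.92 to 3.47 (median 2.63) (-1.15 ± 0.36, adjusted p = 0.0314). The adjusted p of Rhd was 0.0712 without 24 h replicate 3, 0.104 without 24 h replicate 1 and 0.0528 without untreated replicate 2. That of Kel rose above the threshold in 6 of 10 fits that left out 1 array, to at most 0.0985. Their promoters are printed because both hold a match to the GATA site AGATAA, in capitals, the letters read by the red cell factor GATA1. They lie at chr4:134864376-134864535 (plus strand) for Rhd and chr6:41704326-41704485 (minus strand) for Kel in the same table.
Rhd: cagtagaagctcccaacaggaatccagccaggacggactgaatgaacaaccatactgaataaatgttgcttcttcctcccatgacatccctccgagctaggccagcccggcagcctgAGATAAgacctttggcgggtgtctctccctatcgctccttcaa
Kel: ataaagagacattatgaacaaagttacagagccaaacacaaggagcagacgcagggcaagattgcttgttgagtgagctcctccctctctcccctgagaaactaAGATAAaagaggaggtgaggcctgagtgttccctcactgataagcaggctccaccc
In the windows from 250 bases before to 50 after the start, 8 of 22 erythroid genes held the site (36.4%), against 9.32% of tested genes and 11.3% of 335 genes called lower. The site was not particular to them: 6 of 14 chemokine receptors (42.9%) and 5 of 13 megakaryocyte and platelet markers (38.5%) held it. Of 16 haem synthesis and iron import genes 3 did (18.8%).

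Of 31 mitotic genes 2 were lower and 0 higher (median -0.21), Mki67 and the centromere histone Cenpa (-0.58 ± 0.16, adjusted p = 0.0135), and neither was called without 24 h replicate 3. Mki67, the proliferation antigen Ki-67, read -0.65, -0.43, -0.44 and 0.40 at 24 h against 0.53 to 2.52 (median 1.05), a difference of -1.49 ± 0.41, adjusted p = 0.0138, and its adjusted p was 0.0527 without 24 h replicate 3. Cdc25b, a phosphatase that starts mitosis, read -0.66, 0.11, -1.09 and -0.84 against 0.60 to 0.97 (median 0.83), a difference of -1.43 ± 0.26, adjusted p = 0.000143. It is not a member of the list and is named as one of the 20 lowest genes. DNA replication genes had 3 of 38 higher and 0 lower (median 0.25), with 1 higher without 24 h replicate 2 or 3. That count is near the 8.03% of all genes called higher.

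Dendritic cell markers split, with 5 of 17 lower and 2 higher (median -0.26), where 2.87% of all genes were called lower and 8.03% higher. Ifi205, which also stands in the p200 list, was among the members called higher, and the highest difference of the list was 0.733. Naaa was among the members called lower. There were 3 lower members without 24 h replicate 3 and 0 with run in the fit. Besides Cd207, Itgae, the integrin CD103, read 0.94, 0.42, 0.53 and 0.11 against 0.94 to 1.29 (median 1.15), a difference of -0.64 ± 0.17, adjusted p = 0.0111. The chemokine receptor Xcr1 read 1.02, 0.10, -0.13 and 0.90 against 0.98 to 1.62 (median 1.25) (-0.79 ± 0.21, adjusted p = 0.00945), with an adjusted p of 0.0583 without 24 h replicate 2 and 0.102 without 24 h replicate 3. Clec9a, which binds actin of dead cells, read -0.07, -0.24, -0.42 and -0.16 against 0.24 to 0.79 (median 0.49) (-0.73 ± 0.19, adjusted p = 0.009675), with 0.0543 without 24 h replicate 3. Plasmacytoid markers had 4 of 11 higher, among them the interferon-induced Bst2. The count was 2 after quantile normalization or without 24 h replicate 2 and 1 without 24 h replicate 3, and Siglech, a defining surface lectin, differed by -0.01 ± 0.24, adjusted p = 0.988.

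B cell markers had 1 of 23 higher and 1 lower, with 0 higher without 24 h replicate 2 or 3 or untreated replicate 1 or 2, and the low-affinity IgE receptor Fcer2a, the one that fell, differed by -0.80 ± 0.21, adjusted p = 0.00984 (0.0847 without 24 h replicate 3 and 0.0516 when only the groups compared were fitted). T cell markers had 1 of 24 higher and 2 lower, with a median of -0.31, and 19 of the 24 differences were below 0. The count of lower T cell markers moved with scaling and with single arrays. It was 6 with arrays centred on their median or scaled to 1 median absolute deviation, 9 after quantile normalization and 0 with run in the fit. It was 7 without 24 h replicate 1, 4 without untreated replicate 5, 0 without untreated replicate 3, and 1 without untreated replicate 1, untreated replicate 2 or 24 h replicate 3. The T cell receptor subunit Cd3e did not pass (-0.48 ± 0.17, adjusted p = 0.0589), though it did without untreated replicate 5 (0.045), 24 h replicate 2 (0.0408) or 24 h replicate 1 (0.0411). It also passed with arrays centred on their median (0.0467), scaled (0.0139) or quantile normalized (-0.62, 0.00781). Plasma cell markers had 2 of 14 higher, and 1 in 8 of the 10 fits that left out 1 array.

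The remaining lists are given by counts, to be read beside the 8.03% of all genes called higher and the 2.87% called lower. Called higher and lower were 1 and 2 of 16 chemokine receptors, 2 and 1 of 11 eosinophil, basophil and mast cell markers, and 1 and 0 of 16 megakaryocyte and platelet markers. They were 1 and 0 of 30 endothelial and stromal markers, 3 and 0 of 14 adipocyte and mesothelial genes, and 1 and 0 of 23 cholesterol genes. They were 8 and 0 of 58 cytosolic ribosomal proteins, 3 and 0 of 14 glucocorticoid-induced genes, and 9 and 3 of 24 antioxidant and detoxification genes. Without 24 h replicate 3 the higher counts were 3 for ribosomal proteins, 3 for antioxidant genes and 1 for adipocyte genes, and antioxidant genes had 5 without 24 h replicate 2. The lower chemokine receptors numbered 1 in 8 of the 10 fits without an array. Cholesterol genes had 0 higher without 24 h replicate 2 or 3, and without 24 h replicate 4 they, the endothelial and the megakaryocyte markers had 2 each. Ribosomal proteins had 1 higher when only the groups compared were fitted. Some genes stand in more than 1 list.

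Pancreas acinar genes, markers of a neighbouring organ, varied between arrays of both groups, with 0 of 21 called and a median of -1.04. Trypsinogen Prss1 read 2.17, 2.93, 5.19 and -0.31 at 24 h and -0.01 to 6.19 (median 3.84) in untreated spleen. Reg3a, a secreted lectin, read 4.26, 3.93, 6.27 and 0.60 at 24 h and -0.29 to 0.31 (median 0.01) in untreated spleen, a difference of 3.76 ± 0.96, adjusted p = 0.00773. The 24 h arrays kept the same order in Reg3a as in Prss1 except for replicates 1 and 2, and replicate 4 was lowest in both. In untreated spleen Reg3a stayed within 0.31 of 0 while Prss1 reached 6.19. Of 4 Reg family lectins 2 were higher, at a median of 2.06. The count was 0 without 24 h replicate 3, where Reg3a did not pass and Reg2 had too few values to be tested. Reg2, a relative of Reg3a, had 3 values at 24 h, 3.85, 5.22 and 7.63, against -0.17 to 2.89 (median 0.44) on 5 untreated arrays (4.75 ± 1.45, adjusted p = 0.0325). The adjusted p of Reg3a was 0.0817 without 24 h replicate 3, and that of Reg2 was 0.0596 without untreated replicate 4, 0.0593 without replicate 6 and 0.0668 without replicate 2. With the mean of the acinar list as a covariate, Reg3a differed by 4.31 (adjusted p = 1.99e-05) and Reg2 by 4.96 (adjusted p = 3.4e-05). In that fit 1952 genes were called, 1404 higher and 548 lower. It gave the acinar mean a common slope in all groups, whereas Reg3a stayed near 0 in untreated spleen whatever Prss1 read. The fit therefore cannot separate the Reg signal from acinar tissue, and the source of that signal was not tested.

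**Figure D4:**
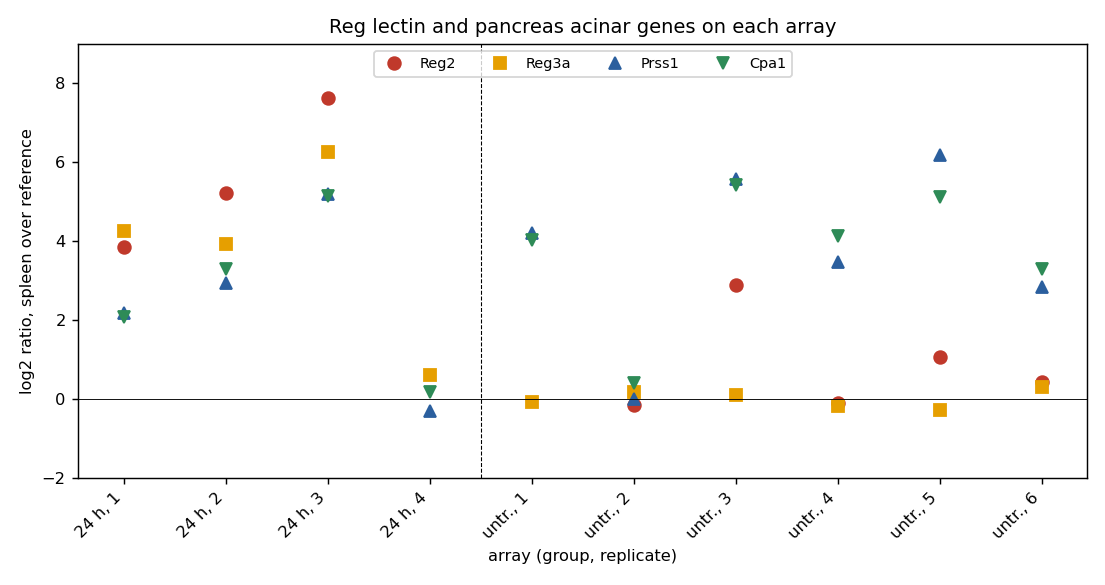
Log2 ratio (vertical axis) of the lectins Reg2 and Reg3a and of the acinar genes Prss1 and Cpa1 on each of the 4 CpG 24 h and 6 untreated arrays (horizontal axis). Reg3a is near 0 on all untreated arrays, including those where Prss1 and Cpa1 exceed 5, and runs from 0.60 to 6.27 at 24 h. Reg2 has no value on 24 h replicate 4 and untreated replicate 1.

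The times on either side were compared directly, so that no untreated mean enters the differences. The spread behind their p-values still came from all 42 arrays, untreated ones included, unless only the groups compared were fitted. Between 9 h and 24 h, 1463 of 15057 genes (9.72%) were called, 962 higher and 501 lower at 24 h. Fitting only the arrays of these times gave 149, 110 higher and 39 lower. The count was 492 without 24 h replicate 3, 883 without 24 h replicate 2, 2386 without 24 h replicate 4 and 804 without 9 h replicate 4. Without 24 h replicate 1, all arrays of both times lie in a single run, and 1161 were called, 743 higher and 418 lower. That fit still took its spread from the arrays of all groups and runs. Antiviral genes had 12 of 25 members lower at 24 h than at 9 h and 0 higher, where 3.33% of all genes were lower and 6.39% higher. Genes that fell between the times included the chemokine Ccl4 by 1.81 (adjusted p = 1.6e-06), the decoy receptor Il1r2 by 2.31 (adjusted p = 1.415e-06) and Acod1, which makes itaconate, by 1.75 (adjusted p = 1.365e-05). At 24 h Acod1 was not called against untreated (0.33 ± 0.23, adjusted p = 0.395). Genes higher at 24 h than at 9 h included the hydrolase Cmbl (2.94 ± 0.25, adjusted p = 7.89e-10), the peptide transporter Slc15a2 (2.34 ± 0.28, adjusted p = 9.77e-07) and Cd5l (2.25 ± 0.48, adjusted p = 0.002925). Oxidative phosphorylation had 21 of 46 members higher at 24 h than at 9 h and 0 lower, and 15 higher without 24 h replicate 1. Erythroid markers had 10 of 32 lower at 24 h than at 9 h, and 8 without 24 h replicate 1.

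Between 24 h and 72 h, 831 of 15086 genes (5.51%) were called, 545 higher (65.6%) and 286 lower at 72 h, where 3.61% and 1.9% of those tested were called, and no run holds arrays of both times. The count was 471 without 24 h replicate 3, 469 without 72 h replicate 2 and 303 when only the groups compared were fitted. The excess of higher genes was absent without 24 h replicate 4, with 443 higher and 450 lower (49.6% higher), and array weights gave 1073 higher and 929 lower (53.6%). Erythroid markers were higher at 72 h in 22 of 32 members and lower in 0, with a median of 1.23, and haem genes in 12 of 19 with a median of 0.94. Fech rose by 1.98 ± 0.34, adjusted p = 0.000234 and Kel by 2.51 ± 0.39, adjusted p = 7.53e-05. Mitotic genes were higher at 72 h in 18 of 31 members, Mki67 by 2.34 ± 0.45, adjusted p = 0.000707. Antiviral genes were lower at 72 h in 9 of 25 members and higher in 1, with the Mx family gene Mx2 down by 1.57 (adjusted p = 4.94e-06). GTPases had 0 of 15 called either way. Apol10a, which did not pass at 24 h against untreated (-0.56 ± 0.40, adjusted p = 0.406), ranked first among genes named for their rise to 72 h, by 4.20 ± 0.44, adjusted p = 2.65e-07. Slfn4 fell by 2.11 (adjusted p = 9.05e-05).

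**Figure D5:**
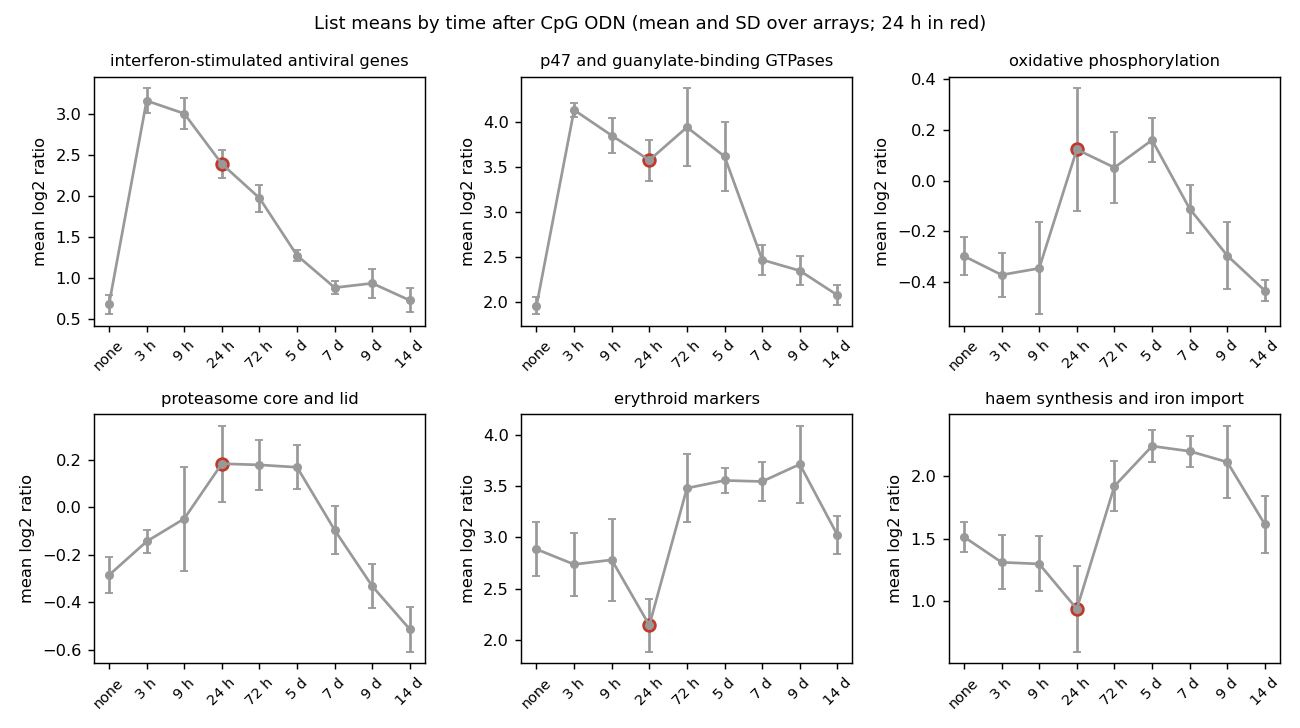
Mean log2 ratio of 6 gene lists (vertical axis, mean and SD over arrays) in untreated spleen and at each time after CpG ODN (horizontal axis, not to scale), with 24 h in red. The erythroid mean was 2.88 ± 0.26 untreated, 2.78 ± 0.40 at 9 h, 2.14 ± 0.26 at 24 h and 3.48 ± 0.33 at 72 h, and the antiviral mean was 3.01 ± 0.19 at 9 h and 2.39 ± 0.17 at 24 h.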

How the data were processed

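The values are log2 ratios of spleen over a common mouse reference on 2-colour arrays, taken as the authors deposited them. Per the labels, Cy5 carried the spleen cDNA and Cy3 the reference; the sources used here state neither base nor centring nor filters. Features with 1 gene symbol (23485 of 30601) were averaged by symbol; 179 carried several symbols and 6937 none. Gene differences came from limma 3.58.1 in R 4.3.3, fitted once to the 42 arrays with a coefficient for each group, on genes with at least 3 values per group; p-values were adjusted by the Benjamini-Hochberg method within each comparison and called below 0.05. Replicates of a group are separate samples by the labels, and the test measures the spread between them. Spread, normalization, filter, run, replicate number and each left-out array were varied.

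Genes named were the 20 highest and 20 lowest called genes without overlap between groups, up to 6 called members of each of 42 lists (any member of lists of 24 or fewer), 6 at each end of the neighbouring times, and a panel. Members and lists were chosen with earlier results of these data known. Promoters came from RefSeq's table for GRCm38.p6. Figures were drawn with matplotlib 3.10.9.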

Additional observations from a re-analysis of the deposited data

Results flagged for a closer look

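Among 246 tests of whether 1 array stands apart from the rest of its group, 10 passed Dixon's criterion, and chance gives about 1 in 20. The gap of the end array over the group's range was 0.989 for Cycs, 0.972 for Manf, 0.865 for Socs1 and 0.842 for Gzma at 24 h, with replicate 4 the lowest in each. At 24 h it was 0.899 for Gch1 (replicate 2 highest) and 0.865 for Ifit3 (replicate 1 highest). Among untreated arrays replicate 4 was lowest for Hsp90b1 (0.783) and Tgm2 (0.744). The mean of the haem list at 24 h had a gap of 0.86 at its upper end, and the mean of the proteasome list 0.9 at its lower end.

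Some genes differed from untreated by more than 1 in opposite directions at 2 times, with the difference between the times called in limma. Only such genes among those named were sought. Apol7c differed by -3.649 between 24 h and 9 h (adjusted p = 9.49e-08) and Cmbl by 2.943 (adjusted p = 7.89e-10). Between 72 h and 24 h Kel differed by 2.514 (adjusted p = 7.53e-05) and Tfrc by 2.362 (adjusted p = 7.94e-05).

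Features without a single symbol were not part of the comparison by gene. Of 6968 such features tested, 332 were called at 24 h against untreated (4.76%), 189 higher and 143 lower.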

How the results depend on the processing

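With run as a fixed term, 24 h against untreated had 133 called genes, antiviral genes had 15 called higher, GTPases 3, oxidative phosphorylation 0 and the proteasome 1, while erythroid genes had 1 called lower and haem genes 2. Called higher were 3 sensors, 4 p200, schlafen and apolipoprotein L genes, 2 class I genes, 3 monocyte markers and 1 MS4A gene, and 0 cytokines, chemokines, neutrophil, killer cell or lysosome genes. Of 77 named called genes fitted so, 47 lost the call, and Apol7c turned to 0.168. The cause was not tested. Fitting only the groups compared gave 1075 genes at 24 h against untreated, 149 against 9 h and 303 for 72 h against 24 h. Array weights gave 2002 for the last. An adjusted p below 0.01 gave 796, 466 and 379 genes and 11 oxidative phosphorylation members. Requiring a difference above 1 as well gave 333, 216 and 292 genes, 7 erythroid, 1 oxidative phosphorylation and 0 proteasome members. Lower erythroid genes numbered 21 after quantile normalization and 20 after scaling. Leaving out 1 array gave 832 to 2578 genes against untreated, 492 to 2386 against 9 h and 469 to 1054 for 72 h. It gave 23 to 23 antiviral, 13 to 14 GTPase, 11 to 27 oxidative phosphorylation, 12 to 21 proteasome, 7 to 14 erythroid and 7 to 10 haem members. The run term could not be fitted for 72 h against 24 h.

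The labels tie replicate numbers to nothing shared, and in no comparison did all same-number correlations pass 0.1. For replicates 1 to 4 they were 0.456, -0.211, 0.087 and -0.093 at 24 h against untreated, 0.399, 0.012, 0.155 and 0.389 against 9 h, and 0.283, 0.073, 0.414 and 0.332 for 72 h against 24 h. In the last 2 comparisons 3 of 4 passed, a hint of pairing from the data, but not every replicate correlated best with its own number. With the replicate block 1246 genes were called against untreated, 1595 against 9 h and 817 for 72 h against 24 h. Kel (adjusted p = 0.159), Reg2 (0.118) and Cenpa (0.0519) lost their call under it and Klf1 (0.048) gained one.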
